A study of Mus musculus with 66 samples.

Results

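Whole cerebellum of C57BL/6J mice, an inbred laboratory strain, was compared between P9 and P6, where P counts days after birth. The comparison used the 3 arrays labelled P9 and the 3 labelled P6 in the signal table of this strain, 6 of the 66 Illumina bead arrays of the series, and it was repeated without P9 replicate 3. The series follows C57BL/6J and DBA/2J cerebella from E12, a day of embryonic life, to P9, and asks how expression changes over that time. No mutation, transgene or treatment is given in the labels, and the replicates are described as biological. Neither the sex of the mice nor the number of cerebella behind a sample is given in the sources used here.

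In the mouse cerebellum these days fall in a period of rapid growth after birth. Granule cell progenitors divide in the external granular layer under Sonic hedgehog released by Purkinje cells, leave the cell cycle and migrate inward past the Bergmann glia to the internal granular layer. Purkinje cells extend their dendrites and receive synapses, inhibitory interneurons settle in the molecular layer, and oligodendrocytes begin to wrap axons of the white matter. Each sample was a whole organ, so fewer cells of a type and less RNA per cell cannot be told apart in any value below.

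Levels are log2 signals after quantile normalization, on which the array median was 6.38, and changes are log2 differences, P9 minus P6, ± SE of the fit. That SE, and each p-value, rests on the spread within all 12 ages of the 35 C57BL/6J arrays. It can differ from the spread of the 6 arrays. Pcp2 had SDs of 0.13 at P6 and 0.20 at P9 but an SE of 0.29, and Grin2c an SD of 0.69 at P9 but an SE of 0.23. The 6 arrays had deposited median signals of 80.02 to 83.70 and highest signals of 30707 to 43985. Across the 25843 probes kept, r was 0.9627 to 0.9935 between arrays of the same age and 0.9579 to 0.9840 between ages, with probes not being independent. P6 replicates 1 and 2 were closest to each other, at 0.9935. P6 replicate 3 was closer to P9 replicates 2 and 3 (0.9840 and 0.9837) than to P6 replicates 1 and 2 (0.9709 and 0.9798). P9 replicate 1 was closer to P6 replicate 2 (0.9837) than to P9 replicates 2 and 3 (0.9832 and 0.9627). By the chip numbers in the labels, P6 replicates 1 and 2 and P9 replicate 1 shared a chip, and each of the other 3 arrays lay on a chip of its own among these 6. Within-chip values below set P9 replicate 1 against the mean of those 2 P6 arrays and have no test. In an alternative fit with the chip as a random block, arrays of 1 chip correlated at 0.503. The tissue label fitted the cerebellar marker Zic1, at 12.75 to 13.80, and the granule neuron synapse organizer Cbln1, at 12.98 to 13.83. Of 18 brainstem and midbrain genes 8 passed the filter on dim probes, with 0 called and 0 at an unadjusted p under 0.05 in limma and a median change of -0.01 with and -0.002 without P9 replicate 3, and their mean level was 6.40 to 6.48 on every array, close to the array median.

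P9 replicate 3 stood apart from the other P9 arrays in transcripts of early embryos. The embryonic beta-type globin Hbb-y, made by primitive red cells, was at 6.15 and 7.86 in P9 replicates 1 and 2 and at 10.04 in replicate 3, against 6.29, 6.34 and 7.30 at P6. The embryonic alpha-type globin Hba-x was at 6.33 and 6.90 in P9 replicates 1 and 2 and at 9.24 in replicate 3, against 6.29 to 6.53 at P6. Of 83 genes at least 4-fold higher at E12 than at P6, 69 (83.1%) were higher in P9 replicate 3 than in both other P9 arrays, a position that 32.5% of all genes had. Their median excess in that array was 0.45, against -0.04 over all genes. P9 replicate 2 exceeded both other P9 arrays in 3 of the 83, and P6 replicate 3 exceeded both other P6 arrays in 36 (43.4%). The embryonic list as a whole had a mean level of 7.16 to 7.27 at P6 and of 6.77, 7.04 and 8.05 in P9 replicates 1, 2 and 3. How these transcripts came into the sample was not tested, and counts and medians of the lists below are given with and without that array.

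**Figure D1:**
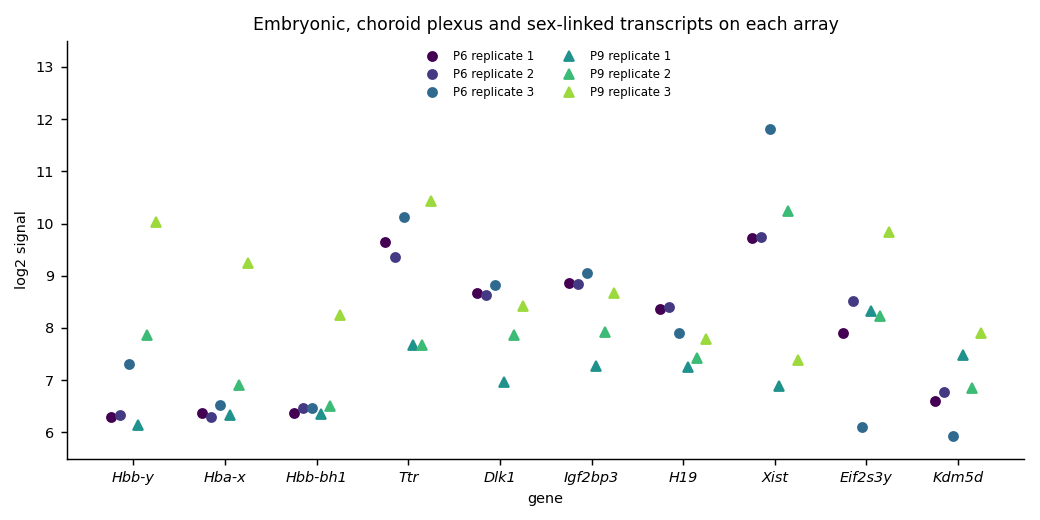
Log2 signal (vertical axis) of 3 embryonic globins, the choroid plexus gene Ttr, 3 fetal growth genes and 3 sex-linked genes on each array; circles are P6 and triangles P9. Hbb-y reaches 10.04 in P9 replicate 3, and Ttr is at 7.68 and 7.67 in P9 replicates 1 and 2 but at 10.43 in replicate 3.

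Between P6 and P9 genes changed in both directions in similar numbers, and among changes of at least 2-fold rises outnumbered falls. Of 13706 genes, each represented by its brightest probe, 872 (6.36%) were called: 411 (3.00%) rose and 461 (3.36%) fell in limma's two-sided moderated test with Benjamini-Hochberg adjustment, and 58 rose (0.423%) and 17 fell (0.124%) by at least 2-fold. All 3 P9 arrays lay above all 3 P6 arrays in 1102 genes (8.04%) and below them in 1449 (10.6%). The median change of all genes was -0.02. Further probes of a called gene could differ: 0 were called for Gli2, Gli3, Scn2b, Snap25, Glrb, Ugt8a, Pdgfra, Tfap2a, Ank3, Cyp51 or Nsdhl. For some other genes further probes were called in the same direction, 3 for Mobp and 2 each for Mbp, Etv1 and Ccnd1. These genes had 4, 4, 3 and 5 kept probes in all. For Cnp a further probe was called in the opposite direction. Without P9 replicate 3, 798 genes were called (5.82%), of which 442 rose (3.22%) and 356 fell (2.60%). Both fits shared 635 called genes, 339 up and 296 down, which is 72.8% of the calls with that array and 79.6% of those without it, and 0 genes were called in opposite directions. On the level of probes 1304 of 25843 (5.05%) were called, 622 up (2.41%) and 682 down (2.64%), and without P9 replicate 3 it was 1193 (4.62%), 680 up (2.63%) and 513 down (1.99%). The count with all 3 P9 arrays was 725 without P6 replicate 2 and 751 without P6 replicate 1, and 2849 with the chip as a random block.

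Most myelin genes rose. Of 20 myelin and oligodendrocyte genes that passed the filter, 13 rose, 0 fell and 7 did not pass the test. Over all genes 3.00% rose. All P9 arrays lay above all P6 arrays in 15 of the 20, against 8.04% of all genes. The median change was 0.89, against -0.02 over all genes, and 0.96 without P9 replicate 3, when 15 rose. Within the shared chip all 20 were higher at P9, with a median of 0.95. From 11 to 17 members rose in the other fits, except in the fit of the 6 arrays alone, where 5 did.

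Mobp, which encodes a small basic protein of compact myelin, was at 8.42, 8.71 and 7.83 in the P6 replicates and at 11.13, 10.39 and 10.49 in the P9 replicates. Every P9 array was far above every P6 array, and the rise of 2.35 ± 0.14 was 5.09-fold (adjusted p = 9.49e-12). The mean of Mobp had been 6.20 at P0 and 6.28 at P3, below the array median. Mag, an adhesion molecule of the myelin membrane facing the axon, was at 10.02, 9.97 and 9.86 at P6 and at 11.79, 11.84 and 11.61 at P9. Its replicates lay close together at each age, and it rose by 1.79 ± 0.12, or 3.47-fold (adjusted p = 1.28e-10). Both genes were called in every alternative fit and without any 1 of the 6 arrays.

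The myelin basic protein gene Mbp, whose product compacts the myelin membrane, was at 12.89, 13.09 and 12.56 at P6 and at 14.33, 14.33 and 13.98 at P9. The groups did not overlap, and the rise was 1.37 ± 0.25 (adjusted p = 0.000833), but blocking on the chip as a fixed effect ended the call (adjusted p = 0.0568). Ugt8a, the enzyme that makes the myelin lipid galactosylceramide, rose by 1.31 ± 0.17. Tspan2, a tetraspanin of oligodendrocytes, rose by 1.27 ± 0.13 and Fa2h, which hydroxylates the fatty acids of myelin lipids, by 1.23 ± 0.15. Cldn11, the claudin of myelin tight junctions, rose by 0.99 ± 0.21, the myelin proteolipid gene Mal by 0.92 ± 0.14 and Opalin, a membrane protein of oligodendrocytes, by 0.56 ± 0.08. Cnp, the cyclic nucleotide phosphodiesterase of uncompacted myelin, rose by 0.79 ± 0.11, but a further Cnp probe was called as falling. Among the 7 members that did not pass, the homeobox factor Nkx6-2 changed by 0.54 ± 0.22 (adjusted p = 0.205) and the iron carrier Trf by 0.49 ± 0.21 (adjusted p = 0.229); without P9 replicate 3 Nkx6-2 rose by 0.85 (adjusted p = 0.0199).

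The promoters of Mag and Mobp are shown because the rises of both genes held in every fit run. Sequences are RefSeq windows on GRCm38.p6, from 250 bases before to 50 bases after the most upstream start, 5′ to 3′ on the gene's strand. Mag lies on the minus strand at chr7:30914873-30915172 and Mobp on the plus strand at chr9:120149492-120149791. Capitals mark CCAAT, the letters bound by the factor NF-Y, or TTTGAA, the element known as the cell cycle homology region, on either strand, so that ATTGG and TTCAAA count as matches.
Mag: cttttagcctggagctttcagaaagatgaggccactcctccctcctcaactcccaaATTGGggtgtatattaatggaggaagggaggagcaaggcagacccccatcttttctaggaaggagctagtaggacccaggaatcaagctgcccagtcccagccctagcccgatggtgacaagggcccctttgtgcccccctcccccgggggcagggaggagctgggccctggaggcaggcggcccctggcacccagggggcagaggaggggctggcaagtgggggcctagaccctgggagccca
Mobp: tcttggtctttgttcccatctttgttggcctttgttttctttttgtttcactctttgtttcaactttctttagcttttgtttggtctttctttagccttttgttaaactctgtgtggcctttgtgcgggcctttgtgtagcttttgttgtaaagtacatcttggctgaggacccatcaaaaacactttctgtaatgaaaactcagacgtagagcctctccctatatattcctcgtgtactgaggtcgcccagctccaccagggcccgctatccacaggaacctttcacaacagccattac
The Mag window held 1 match to CCAAT and 0 to TTTGAA, and the Mobp window held 0 of either. Of 27025 RefSeq promoters, 1 for each gene, 38% held CCAAT and 18.2% held TTTGAA. Over the 10805 measured genes with a promoter those shares were 38.2% and 12.4%. Among the 12 myelin genes whose promoter RefSeq gave, 5 held the first and 1 the second.

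**Figure D2:**
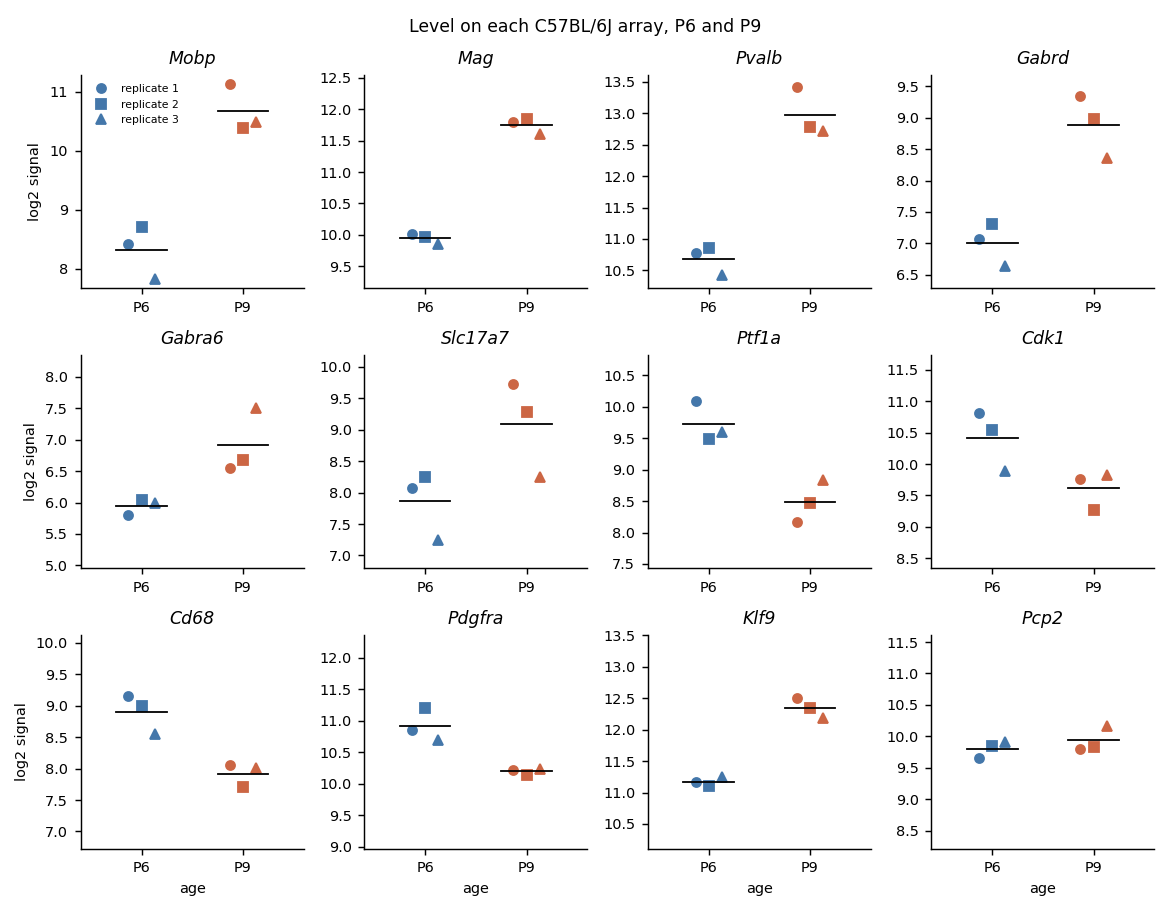
Log2 signal (vertical axis) of 12 genes on each C57BL/6J array at P6 (blue) and P9 (orange); symbols give the replicate and black lines the mean of 3 arrays. Mobp, Mag, Pvalb, Gabrd and Klf9 separate the ages widely, while the Pcp2 probe used overlaps, with a change of 0.14.

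Most genes of the mature granule neuron rose as well. Of 12 such genes 8 rose and 0 fell, against 3.00% and 3.36% of all genes, with a median change of 1.02. All 8 lay higher on every P9 array, as did 8.04% of all genes. Without P9 replicate 3, 7 rose and the median was 0.82, and within the shared chip all 12 were higher, with a median of 0.72. The fit of the 6 arrays alone called 0 of them, and the other fits 6 to 9. Gabrd, the delta subunit of extrasynaptic GABA-A receptors, was at 7.06, 7.31 and 6.63 at P6 and at 9.34, 8.97 and 8.36 at P9. The lowest P9 array was still more than 1 log2 unit above the highest P6 array, and the rise was 1.89 ± 0.15, or 3.70-fold (adjusted p = 1.85e-09). Gabra6, the alpha 6 subunit that granule neurons make as they mature, was at 5.80, 6.03 and 5.99 at P6 and at 6.55, 6.68 and 7.50 at P9. All 3 P6 values and the P3 mean of 5.89 were below the array median, so its measured rise of 0.97 ± 0.15 (adjusted p = 9.53e-05) starts from a level that may be background. P9 replicate 3 was its highest array, and without it the rise was 0.67 (adjusted p = 0.000137).

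Grin2c, the NMDA receptor subunit that granule neurons take up during maturation, was at 7.39, 7.13 and 7.06 at P6 and at 9.19, 8.60 and 7.81 at P9. The groups did not overlap, but the P9 arrays spread over more than 1 log2 unit, and the rise was 1.34 ± 0.23 (adjusted p = 0.000545). Slc17a7, the vesicular glutamate transporter of granule neurons, was at 8.08, 8.25 and 7.25 at P6 and at 9.73, 9.28 and 8.25 at P9. Its P9 replicate 3 was barely above P6 replicate 2, and the rise was 1.23 ± 0.23 (adjusted p = 0.0013). The transcription factor Etv1, linked to activity in maturing granule neurons, rose by 1.61 ± 0.24 and Chn2, a Rac-regulating chimaerin, by 1.08 ± 0.17. Cbln1, whose secreted product joins parallel fibres to Purkinje spines, rose by 0.62 ± 0.12. Cadps2, a factor of neuropeptide vesicle release, rose by 1.24 ± 0.28 but lost its call without P9 replicate 3 (adjusted p = 0.0669) and without P6 replicate 1. The 4 members that did not pass included Neurod2 and the metabotropic receptor Grm4, with changes of 0.13 ± 0.17 and 0.12 ± 0.11.

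Limma called 0 of 11 genes of migrating granule neurons, with or without P9 replicate 3, and 1 had an unadjusted p under 0.05. Their median change was 0.16, or 0.22 without that array, and all 11 were higher within the shared chip. Neurod1, a factor of granule cell differentiation, was at 8.55, 8.96 and 9.89 at P6 and at 9.04, 10.24 and 11.06 at P9. Those ranges overlapped, and the change of 0.98 ± 0.42 did not pass (adjusted p = 0.228). Of 18 genes of axon growth and immature neurons limma called 0, with 2 at an unadjusted p under 0.05 and a median of 0.03, or -0.07 without P9 replicate 3, when again 0 were called. The microtubule protein Dcx of migrating neurons changed by 0.05 ± 0.13 (adjusted p = 0.908).

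Purkinje cell genes that passed the test rose, with 1 exception. Of 25 that passed the filter 10 rose, 1 fell and 14 did not pass, against 3.00% of all genes that rose and 3.36% that fell, and the median change was 0.31. Without P9 replicate 3, 12 rose and 1 fell, and the median was 0.45; within the shared chip 19 of 25 were higher, with a median of 0.66. Without other single arrays 7 to 9 rose, and in the fit of the 6 arrays alone 3 did. Pvalb, the calcium buffer parvalbumin of Purkinje cells and molecular layer interneurons, was at 10.77, 10.86 and 10.42 at P6 and at 13.41, 12.79 and 12.71 at P9. Every P9 array was nearly 2 log2 units or more above every P6 array, and the rise was 2.29 ± 0.23, or 4.88-fold (adjusted p = 2.26e-07). Rgs8, a regulator of G-protein signalling in Purkinje cells, was at 8.87, 8.77 and 8.39 at P6 and at 11.12, 10.33 and 9.72 at P9. It rose by 1.71 ± 0.20 (adjusted p = 2.28e-06), with no overlap between the ages.

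Atp2a3, a calcium pump of the endoplasmic reticulum, was at 7.88, 7.83 and 7.76 at P6 and at 9.84, 9.78 and 9.04 at P9, a rise of 1.73 ± 0.13. Gng13, a G-protein gamma subunit, rose by 1.82 ± 0.26, and Ppp1r17, a phosphatase inhibitor of Purkinje cells, by 1.35 ± 0.11. Itpr1, the calcium release channel opened by inositol trisphosphate, rose by 0.71 ± 0.13, and Slc1a6, the glutamate transporter of Purkinje spines, by 0.59 ± 0.10. Rora, the nuclear receptor needed for Purkinje dendrites, rose by 0.77 ± 0.22 (adjusted p = 0.0402) and Calb1, the calcium buffer calbindin, by 0.43 ± 0.11 (adjusted p = 0.0235). Neither was stable: Rora lost its call without any P6 array or without P9 replicate 1 or 2 (highest adjusted p = 0.193), and Calb1 without P6 replicate 1 or 2 or P9 replicate 1 or 3 (highest adjusted p = 0.215). The member that fell was the forkhead factor Foxp2, at 7.51, 7.63 and 7.94 at P6 and at 6.94, 7.03 and 7.10 at P9, with a change of -0.67 ± 0.16 (adjusted p = 0.00855). The brighter of 2 kept probes of Pcp2, the Purkinje cell gene also called L7, did not differ detectably. It was at 9.66 to 9.90 at P6 and 9.81 to 10.17 at P9 (0.14 ± 0.29, adjusted p = 0.89). The mean of this probe had already been 10.12 at E12 and was 9.30 at E18, whereas that of Calb1 went from 6.18 to 9.19. How well this probe follows the gene was not tested.

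**Figure D3:**
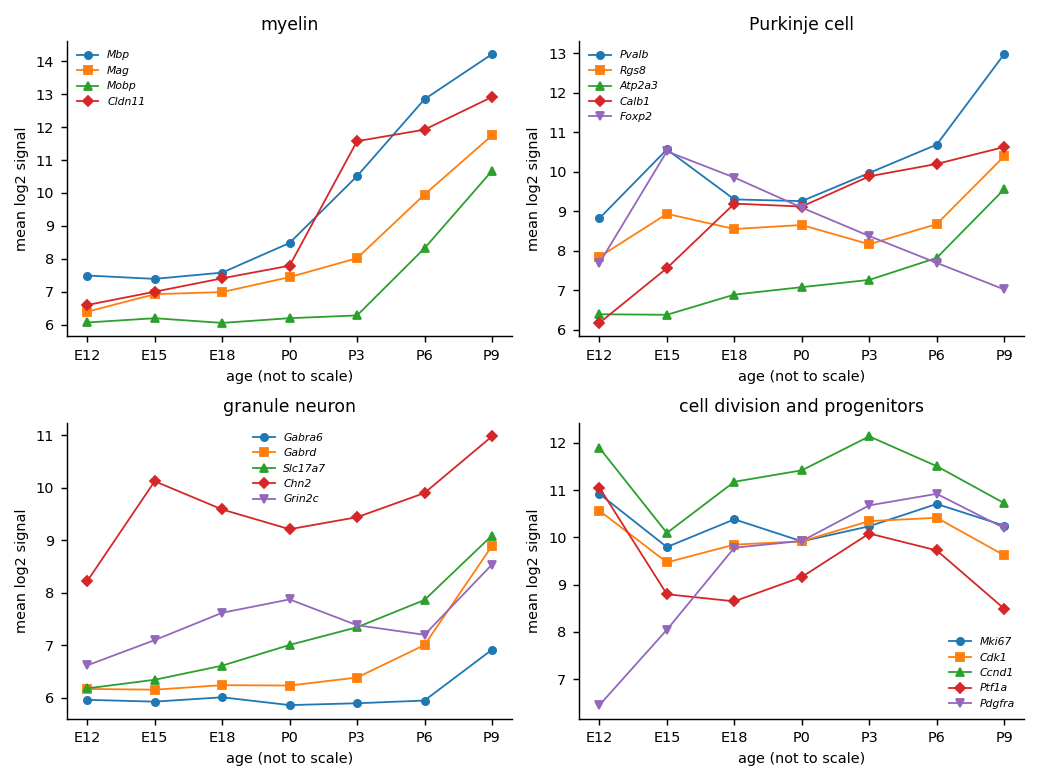
Mean log2 signal (vertical axis) of C57BL/6J arrays at 7 ages from E12 to P9 (horizontal axis, not to scale) for genes of myelin, Purkinje cells, granule neurons and dividing or progenitor cells. Mobp leaves the level of 6.28 at P3 to reach 10.67 at P9, and Ptf1a goes from 10.08 at P3 to 8.49 at P9.

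Of 14 genes for GABA and glycine receptor subunits, their anchoring and chloride transport, 4 rose and 0 fell, against 3.00% and 3.36% of all genes. Their median was 0.22, and 3 rose with a median of 0.25 without P9 replicate 3. Limma called 0 of 14 genes on the list of glutamate receptor subunits, with 2 at an unadjusted p under 0.05 and a median of 0.19, or 0 with a median of 0.24 without that array. The difference between these lists was not tested, and with the chip as a random block 3 glutamate receptor genes rose. Gabra2, the alpha 2 subunit that is abundant in immature neurons, was at 6.60, 6.94 and 6.999 at P6 and at 7.35, 7.24 and 7.55 at P9. It rose by 0.54 ± 0.13 (adjusted p = 0.0158), but not without P9 replicate 3 (adjusted p = 0.0875) or P6 replicate 1 (adjusted p = 0.145). The partner subunit Gabrb2 rose by 0.66 ± 0.13 and the glycine receptor beta subunit Glrb by 0.60 ± 0.11. The chloride exporter Slc12a5, which lowers chloride in maturing neurons, was at 6.18 to 6.44 at P6 and 6.30 to 6.98 at P9 and did not pass (0.29 ± 0.17, adjusted p = 0.467). Its P6 mean of 6.28 was below the array median of 6.38, a level that may be background. The NMDA receptor subunit Grin2b, which prevails in immature neurons, changed by 0.43 ± 0.18 (adjusted p = 0.21), although its P9 arrays all lay above its P6 arrays, and Grin2a, the subunit of mature receptors, by 0.64 ± 0.20 (adjusted p = 0.0681).

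Of 17 voltage-gated channel genes 5 rose and 0 fell, against 3.00% and 3.36% of all genes. Their median was 0.27, and 5 rose without P9 replicate 3, with a median of 0.37, 4 of them in both fits. Scn2b, a beta subunit of sodium channels, was at 7.36, 7.76 and 7.53 at P6 and at 9.06, 8.85 and 9.26 at P9, a rise of 1.51 ± 0.21 (adjusted p = 4.61e-05). Cacna1g, the pore of a T-type calcium channel, was at 8.34, 8.24 and 8.64 at P6 and at 10.06, 10.03 and 9.59 at P9, a rise of 1.49 ± 0.13 (adjusted p = 2.22e-08). In both genes the lowest P9 array was above the highest P6 array by close to 1 log2 unit or more. The calcium channel subunit Cacnb4 rose by 1.02 ± 0.22. The potassium channel Kcna1 had overlapping ages, at 6.30 to 6.81 and 6.64 to 7.21, and a P6 mean of 6.49, near the array median. It rose by 0.44 ± 0.12 (adjusted p = 0.0269) but lost the call without P6 replicate 1 or 2 or P9 replicate 2 or 3 (highest adjusted p = 0.224).

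Presynaptic genes rose in 4 of 21 cases and fell in 0, against 3.00% and 3.36% of all genes. Their median was 0.31, and 5 rose without P9 replicate 3, with a median of 0.39. Snap25, a SNARE protein of vesicle fusion, was at 12.50, 13.20 and 12.78 at P6 and at 13.94, 13.51 and 13.27 at P9, a rise of 0.75 ± 0.16 (adjusted p = 0.00343) in which the nearest arrays of the ages differed by little. The vesicle glycoprotein gene Sv2b rose by 0.68 ± 0.13. The fusion regulator Cplx1 rose by 0.53 ± 0.13 and lost its call without P6 replicate 3, P9 replicate 1 or P9 replicate 2 (highest adjusted p = 0.122). Under scaling to equal medians 0 members of the list passed, with a median of 0.26, and without single arrays 2 to 5 did, the lowest count being without P6 replicate 3 or P9 replicate 2. Of 11 postsynaptic scaffold and kinase genes Dlg3 passed, with a rise of 0.58 ± 0.15, but not without P6 replicate 1 or P9 replicate 1 (highest adjusted p = 0.106), and of 6 neurofilament and node genes the node scaffolds Sptbn4 and Ank3 passed, by 0.71 ± 0.15 and 0.51 ± 0.14. The first list had 3 rises without P9 replicate 3, Dlg3, the kinase subunit Camk2b (0.53, adjusted p = 0.0406) and the scaffold Baiap2 (0.40, adjusted p = 0.0404), and its median went from 0.26 to 0.40. The second then had 3, with the node adhesion gene Nfasc added (0.50, adjusted p = 0.0137), and its median went from 0.24 to 0.27. Sptbn4 lost its call without P9 replicate 1 (adjusted p = 0.0538) and Ank3 without P6 replicate 1 or 2 or P9 replicate 1 or 2 (highest adjusted p = 0.161).

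Some cell cycle genes fell, and 0 rose. Of 24 that passed the filter 7 fell and 17 did not pass, against 3.36% of all genes that fell. All P9 arrays lay below all P6 arrays in 15 of the 24, against 10.6% of all genes. The median change was -0.42, and -0.50 without P9 replicate 3, when 7 fell, 6 of them in both fits, and within the shared chip 1 of 24 was higher at P9, with a median of -0.62. The count rested on single arrays: 1 member fell without P6 replicate 1, 1 without P6 replicate 2, 3 without P9 replicate 1, 3 without P9 replicate 2 and 10 without P6 replicate 3. It was 16 with the chip as a random block, 2 under scaling to equal medians and 0 in the fit of the 6 arrays alone. Cdk1, the kinase that drives entry into mitosis, was at 10.81, 10.54 and 9.89 at P6 and at 9.77, 9.27 and 9.82 at P9. P6 replicate 3 lay close to the P9 arrays, and the fall was -0.79 ± 0.20 (adjusted p = 0.0177). Cdk1 lost its call without P6 replicate 1 or 2 or P9 replicate 2 (highest adjusted p = 0.164). Birc5, the survivin of the chromosomal passenger complex, was at 10.38, 10.19 and 10.14 at P6 and at 9.50, 9.58 and 9.69 at P9. It changed by -0.65 ± 0.14 (adjusted p = 0.00638), with no overlap, and narrowly lost the call without P6 replicate 1 (adjusted p = 0.0509). The mitotic kinases Aurkb and Aurka changed by -0.62 ± 0.15 and -0.60 ± 0.16, the mitotic transcription factor Foxm1 by -0.63 ± 0.16, the nucleotide reductase subunit Rrm2 by -0.56 ± 0.16 and the replicative helicase subunit Mcm5 by -0.44 ± 0.12. Aurka, Rrm2 and Mcm5 each lost the call without P6 replicate 1 or 2 or P9 replicate 1 or 2 (highest adjusted p = 0.166, 0.208 and 0.127). Aurkb lost it without P6 replicate 2 or P9 replicate 1 (highest adjusted p = 0.0678). Foxm1 lost its call without P9 replicate 3 (adjusted p = 0.0997), and also without P6 replicate 1 or 2. The mitotic cyclin Ccnb1 gained a call without P9 replicate 3 (-0.56, adjusted p = 0.0313). Mki67, which encodes the proliferation antigen Ki-67, was at 10.66, 10.86 and 10.60 at P6 and at 10.13, 10.20 and 10.40 at P9. All 3 P9 arrays were lower, but the change of -0.46 ± 0.18 did not pass (adjusted p = 0.162).

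The promoters of Cdk1 and Aurka are shown beside these falls, with the same letters in capitals as for the myelin genes. Both lie on the minus strand, at chr10:69352863-69353162 and chr2:172370521-172370820.
Cdk1: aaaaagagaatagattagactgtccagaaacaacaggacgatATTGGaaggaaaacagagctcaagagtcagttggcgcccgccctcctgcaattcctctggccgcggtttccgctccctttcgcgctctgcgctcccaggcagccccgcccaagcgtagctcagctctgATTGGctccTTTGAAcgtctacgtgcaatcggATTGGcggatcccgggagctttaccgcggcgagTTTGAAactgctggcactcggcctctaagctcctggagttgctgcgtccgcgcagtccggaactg
Aurka: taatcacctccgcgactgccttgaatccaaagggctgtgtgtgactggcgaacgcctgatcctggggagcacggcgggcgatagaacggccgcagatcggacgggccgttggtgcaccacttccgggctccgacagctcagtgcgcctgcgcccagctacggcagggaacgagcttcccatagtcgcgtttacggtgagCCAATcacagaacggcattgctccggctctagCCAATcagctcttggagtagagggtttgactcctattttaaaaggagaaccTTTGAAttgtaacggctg
The Cdk1 window held 3 matches to CCAAT and 2 to TTTGAA, and the Aurka window held 2 and 1, with 0 overlapping each other. Among the 20 measured cell cycle genes whose promoter RefSeq gave, 17 held CCAAT and 10 held TTTGAA, and over the 10805 measured genes with a promoter those shares were 38.2% and 12.4%. Of the 5 called cell cycle genes with a promoter 4 held CCAAT and 2 held TTTGAA. Those 2 were Cdk1 and Aurka, so the windows shown are not typical of the called genes in TTTGAA. Among all genes that fell 39.3% held CCAAT and 13.7% TTTGAA, and among genes that rose 31% and 8.78%. A match describes these letters and is not a measured binding site.

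Sonic hedgehog pathway genes fell in 4 of 12 cases and rose in 0, against 3.36% and 3.00% of all genes. Their median was -0.33, and 3 fell without P9 replicate 3, with a median of -0.37. In the fit of the 6 arrays alone and with the replicate number as a block 0 were called. With the chip as a random block 6 fell. Ccnd1, the cyclin through which the pathway drives division, was at 11.46, 11.25 and 11.80 at P6 and at 10.50, 10.82 and 10.85 at P9. The ages did not overlap, and the fall was -0.78 ± 0.16 (adjusted p = 0.00248). The transcriptional effectors Gli2 and Gli3 changed by -0.63 ± 0.14 and -0.52 ± 0.10, each with every P9 array below every P6 array and with the call kept without any 1 array. The other kept probe of each gene was not called. The ligand-binding inhibitor Hhip changed by -0.48 ± 0.13 and lost its call without P6 replicate 1 or 2 or P9 replicate 2 or 3 (highest adjusted p = 0.301). The receptor Ptch1 changed by -0.32 ± 0.20 (adjusted p = 0.492). The effector Gli1 and the progenitor factor Atoh1 did not pass the filter on dim probes. Limma called 0 of 7 genes of granule cell progenitors, of which 2 had an unadjusted p under 0.05, and their median was -0.21, or -0.11 without P9 replicate 3, when again 0 were called. The cyclin Ccnd2 was at 13.26 to 13.62 at P6 and 13.24 to 13.30 at P9, and the homeobox gene Barhl1 changed by -0.31 ± 0.11 (adjusted p = 0.119).

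Of 13 GABAergic progenitor and interneuron genes 4 fell, 0 rose and 9 did not pass, against 3.36% of all genes that fell. Their median was -0.43, and the same 4 fell without P9 replicate 3, with a median of -0.59. With the chip as a fixed block 3 fell and 2 rose, with it as a random block 5 fell and 2 rose, and in the fit of the 6 arrays alone 0 were called. Ptf1a, the factor that commits ventricular zone progenitors to an inhibitory fate, was at 10.09, 9.49 and 9.59 at P6 and at 8.17, 8.47 and 8.83 at P9. The groups were well apart, and Ptf1a changed by -1.23 ± 0.22 (adjusted p = 0.00066), 2.35-fold lower at P9. Its means at P0 and P3 had been 9.16 and 10.08. The neuropeptide gene Npy was at 7.54, 7.46 and 7.58 at P6 and at 6.39, 6.61 and 6.76 at P9, a change of -0.94 ± 0.17 (adjusted p = 0.000976). Tfap2a, a transcription factor of inhibitory precursors, changed by -0.59 ± 0.13 and lost its call with the chip as a fixed effect (adjusted p = 0.051). Prdm13, which acts with Ptf1a in inhibitory specification, was at 9.15, 8.86 and 8.69 at P6 and at 7.89, 7.85 and 7.71 at P9, and was among the 12 largest falls (-1.08 ± 0.18, adjusted p = 0.000229).

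Of 11 oligodendrocyte precursor genes 1 rose and 1 fell, against 3.00% and 3.36% of all genes. Their median was 0.01, or 0.20 without P9 replicate 3, when the same 2 were called. With joint normalization and after subtraction of the 5th percentile 0 were called, and under scaling to equal medians 1 fell and 0 rose. Pdgfra, the growth factor receptor of precursors, was at 10.86, 11.20 and 10.70 at P6 and at 10.22, 10.13 and 10.24 at P9. It changed by -0.72 ± 0.17 (adjusted p = 0.0109), and its call was lost without P6 replicate 2 (adjusted p = 0.1). Enpp6, a phosphodiesterase of newly formed oligodendrocytes, was at 9.95, 9.89 and 9.63 at P6 and at 10.45, 10.21 and 10.31 at P9, a rise of 0.50 ± 0.10 (adjusted p = 0.00234). Gpr17, a receptor of the stage between them, changed by 0.61 ± 0.21 without passing (adjusted p = 0.104).

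Among 21 astroglial genes 2 rose and 0 fell, against 3.00% and 3.36% of all genes. Their median was 0.16, and 2 rose without P9 replicate 3, with a median of 0.17, 1 of them in both fits. The lipid enzyme Acsbg1 rose by 0.44 ± 0.13 and the calcium-binding gene S100b by 0.82 ± 0.18. Acsbg1 lost its call without P6 replicate 1 or 2 or P9 replicate 1 or 2 (highest adjusted p = 0.221), and S100b without P6 replicate 1 or P9 replicate 3 (highest adjusted p = 0.0553). The astrocyte filament Gfap was at 11.75, 11.73 and 10.68 at P6 and at 11.85, 11.26 and 10.78 at P9, with overlapping ages (-0.09 ± 0.21, adjusted p = 0.902). The water channel Aqp4 was at 12.84 to 12.90 at P6 and 12.70 to 13.11 at P9 (0.04 ± 0.22, adjusted p = 0.963).

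Thyroid hormone paces cerebellar maturation, and 3 of 6 genes of that pathway rose and 1 fell, against 3.00% and 3.36% of all genes. Their median was 0.28, or 0.40 without P9 replicate 3, when the same 4 were called. Klf9, a transcription factor induced by the hormone, was at 11.17, 11.11 and 11.25 at P6 and at 12.51, 12.35 and 12.19 at P9. The ages were more than 0.9 log2 units apart and the rise was 1.18 ± 0.11 (adjusted p = 4.63e-08). The corepressor Hr, another hormone-induced gene, rose by 0.46 ± 0.09, and Dio2, the deiodinase that activates the hormone, by 0.79 ± 0.12. Both had P6 levels at or below 6.48, near the array median. Crym, which encodes a thyroid hormone-binding crystallin, changed by -0.78 ± 0.23 and lost its call without any P6 array or without P9 replicate 1 or 2 (highest adjusted p = 0.164). The receptor Thra changed by 0.09 ± 0.36 (adjusted p = 0.948).

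Of 20 cholesterol and fatty acid synthesis genes 4 rose and 0 fell, against 3.00% and 3.36% of all genes, with a median of 0.30. Scd1, which desaturates fatty acids, rose by 0.87 ± 0.18, and the sterol enzymes Ebp, Cyp51 and Nsdhl by 0.65 ± 0.13, 0.52 ± 0.12 and 0.41 ± 0.10. Nsdhl was not called without P6 replicate 2 or P9 replicate 3 (highest adjusted p = 0.0909), and Cyp51 and Nsdhl were not called with the chip as a fixed block. The median was 0.27 without P9 replicate 3, and 4 rose and 1 fell, the latter being the sterol regulator Srebf2 (-0.65, adjusted p = 0.00332). Without P9 replicate 3, 3 of 19 oxidative phosphorylation and glycolysis genes rose, with a median of 0.16. With all arrays 2 rose, against 3.00% of all genes, with a median of 0.13. The 2 were the neuronal enolase Eno2 by 0.76 ± 0.11 and the mitochondrial creatine kinase Ckmt1 by 0.64 ± 0.18. Ckmt1 lost its call without P6 replicate 2 or 3 or P9 replicate 1 or 2 (highest adjusted p = 0.154).

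Some genes of microglia and macrophages, the immune cells of the tissue, fell. Of 16 that passed the filter 6 fell, 0 rose and 10 did not pass, against 3.36% of all genes that fell, with a median of -0.39. The count was again 6 without P9 replicate 3, 5 of them called in both fits, with a median of -0.56. Within the shared chip 0 of 16 were higher at P9. The count was 1 without P6 replicate 1, 2 without P6 replicate 2, 2 without P9 replicate 1, 3 without P9 replicate 2 and 8 without P6 replicate 3, and it was 10 with the chip as a random block and 0 in the fit of the 6 arrays alone. Cd68, a lysosomal protein of phagocytes, was at 9.16, 8.997 and 8.55 at P6 and at 8.05, 7.70 and 8.004 at P9. It changed by -0.98 ± 0.25 (adjusted p = 0.0188), with no overlap. The Fc receptor chain Fcer1g changed by -0.93 ± 0.24 and the lysosomal gene Laptm5 by -0.58 ± 0.15. The complement gene C1qa changed by -0.52 ± 0.10 (adjusted p = 0.00144) and was called without any 1 of the 6 arrays, whereas C1qb (-0.59 ± 0.17) lost its call without P9 replicate 3 (adjusted p = 0.0544) and without 4 of the other arrays. The microglial gene Fcrls changed by -0.56 ± 0.14 and lost its call without P6 replicate 1 or P9 replicate 1 (highest adjusted p = 0.128). Without P6 replicate 1 or 2 the calls of Cd68, Fcer1g and Laptm5 were lost. Cd68 also lost its call without P9 replicate 2, Laptm5 without P9 replicate 1 and Fcer1g without either. The highest adjusted p was 0.116 for Cd68, 0.157 for Fcer1g and 0.0965 for Laptm5. Of 17 endothelial and pericyte genes 1 fell, the endothelial secreted factor Egfl7, at 11.02, 10.91 and 10.49 at P6 and at 10.13, 9.98 and 9.74 at P9 (-0.85 ± 0.17, adjusted p = 0.00194). Of 12 meningeal and fibroblast genes 1 fell, the transporter Slc6a13 (-0.59 ± 0.13), which lost its call without P6 replicate 1 or P9 replicate 1 (highest adjusted p = 0.0947). Both counts stand beside 3.36% of all genes that fell. Egfl7 was again the vessel gene called without P9 replicate 3, and the matrix gene Lum (-0.50, adjusted p = 0.000842) joined Slc6a13. With the chip as a fixed block 6 vessel and 4 meningeal genes fell. The lists of vessels and meninges had medians of -0.19 and -0.27, or -0.29 and -0.25 without P9 replicate 3. The mean level of the meningeal list was lowest in P9 replicate 1, at 8.26, and highest in P6 replicate 1, at 8.82. Whether the share of meninges or vessels in the samples bears on the other falls was not tested.

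**Figure D4:**
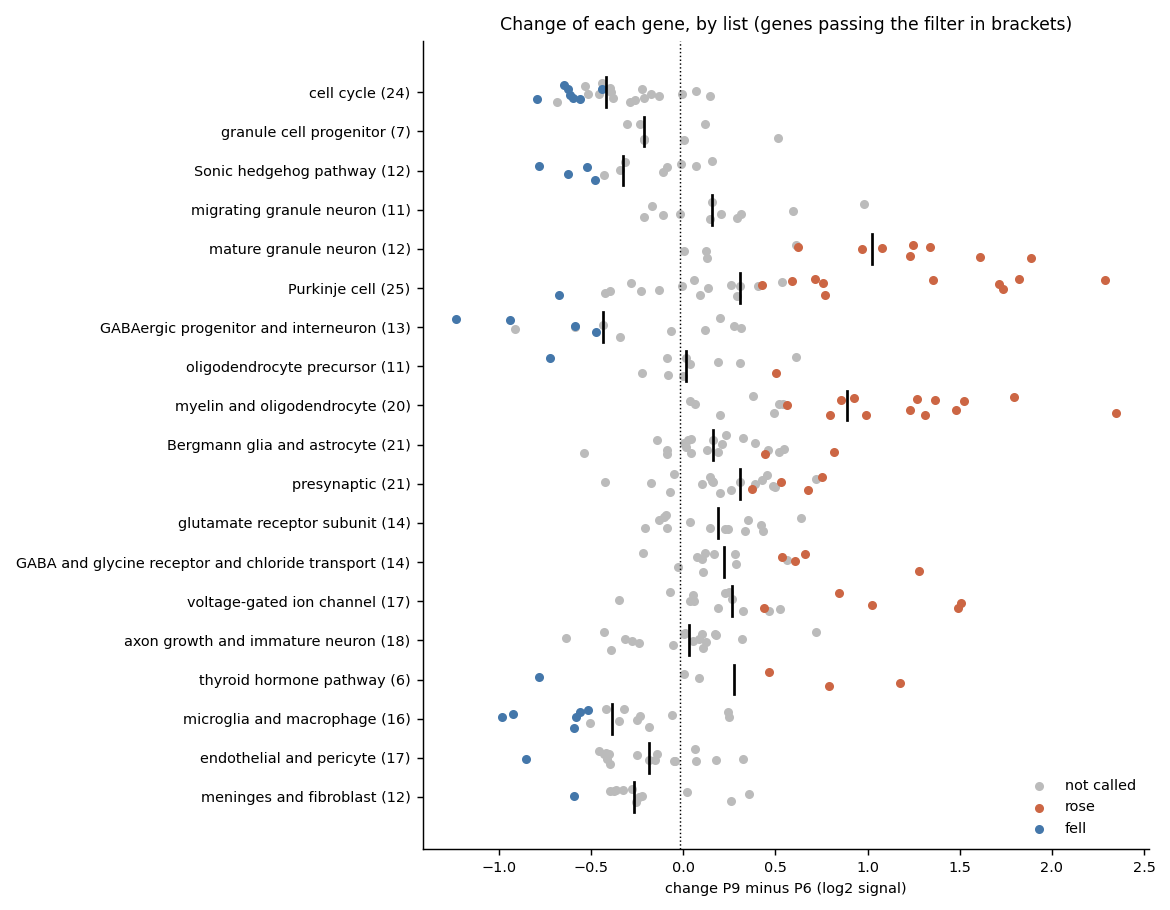
Change from P6 to P9 (horizontal axis, log2) of each gene in 19 lists; orange dots rose and blue dots fell past the test, grey dots did not pass, black bars are list medians and the dotted line the median of all genes. Myelin and mature granule neuron genes reach to the right, with medians of 0.89 and 1.02, and cell cycle and microglial genes lie mostly to the left, with medians of -0.42 and -0.39.

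Each of 3 further lists had 1 call and a median near that of all genes, at 0.07 for unipolar brush and nuclear neurons, 0.03 for the neural extracellular matrix and -0.11 for trophic factors and receptors. Each again had 1 call without P9 replicate 3, with medians of 0.02, 0.14 and -0.07. Over all genes 6.36% were called with all arrays and 5.82% without that array. Calb2, the calretinin gene of unipolar brush cells and granule neurons, was the gene called among 9 of unipolar brush and nuclear neurons, with a rise of 0.60 ± 0.15 that was lost without P9 replicate 1 (adjusted p = 0.0905). Among 6 genes of the neural extracellular matrix the link protein Hapln4 rose by 0.68 ± 0.13 (adjusted p = 0.00135). Ntf3, which encodes neurotrophin-3, rose by 0.54 ± 0.13 among 9 trophic factors and receptors, and the call was lost without P9 replicate 1 (adjusted p = 0.0872).

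The largest changes over all genes that were called in both fits with no overlap included genes outside these lists. Il16, a cytokine precursor gene with a neuronal form, was at 7.77, 7.56 and 7.67 at P6 and at 9.78, 9.74 and 10.01 at P9. Its replicates differed by less than 0.3 at either age, and the rise was 2.18 ± 0.10 (adjusted p = 4.76e-14). Fam107a, an actin-associated gene, rose by 1.78 ± 0.14 and Hsd11b1, which regenerates active glucocorticoid, by 1.53 ± 0.15. The 12 largest rises also held Mobp, Pvalb, Gabrd, Gng13, Mag, Atp2a3, Rgs8 and Etv1. On the other side Arrdc4, an arrestin-domain gene, was at 10.59, 10.75 and 10.90 at P6 and at 8.53, 9.95 and 8.55 at P9. P9 replicate 2 lay between the other P9 arrays and P6, and the change was -1.74 ± 0.23 (adjusted p = 1.27e-05). Cyp26b1, which degrades retinoic acid, was at 12.10, 11.93 and 12.28 at P6 and at 10.61, 11.16 and 11.33 at P9, a change of -1.06 ± 0.21. Scube2, a secreted factor that aids hedgehog release, changed by -1.15 ± 0.14, the actin-severing cofilin gene Cfl1 by -1.14 ± 0.17, the phagocyte glycoprotein gene Gpnmb by -1.14 ± 0.14 and the membrane protein gene Emp1 by -1.07 ± 0.14. The remaining falls were 1700086L19Rik, Kctd16, Dynlrb2 and Fibcd1, at -1.42, -1.20, -1.10 and -1.10.

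Leaving out P9 replicate 3 ended 237 gene calls, 72 up and 165 down, and added 163, of which 103 were up and 60 down. Calls gained without it included genes whose P9 replicate 3 lay near the P6 level. Eps8, an actin regulator, was at 8.24, 8.49 and 8.22 at P6 and at 9.72, 9.16 and 8.68 at P9, and its change went from 0.87 (adjusted p = 0.0508) to 1.12 (adjusted p = 0.0147). Ttr, the thyroid hormone carrier made by the choroid plexus, was at 9.64, 9.36 and 10.12 at P6 and at 7.68, 7.67 and 10.43 at P9. With all arrays its change of -1.12 ± 0.50 did not pass (adjusted p = 0.257), and without replicate 3 it was -2.04 (adjusted p = 0.00188). Limma called 0 of 7 choroid plexus genes, with 1 at an unadjusted p under 0.05 and a median of -0.08, or -0.10 without replicate 3, when Ttr was called. Calls that needed replicate 3 included Rgs4, a G-protein regulator, which changed by -1.09 ± 0.26 with it (adjusted p = 0.0119) and by -0.93 without (adjusted p = 0.0674); that call also ended without P6 replicate 1 or 2 or P9 replicate 2.

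**Figure D5:**
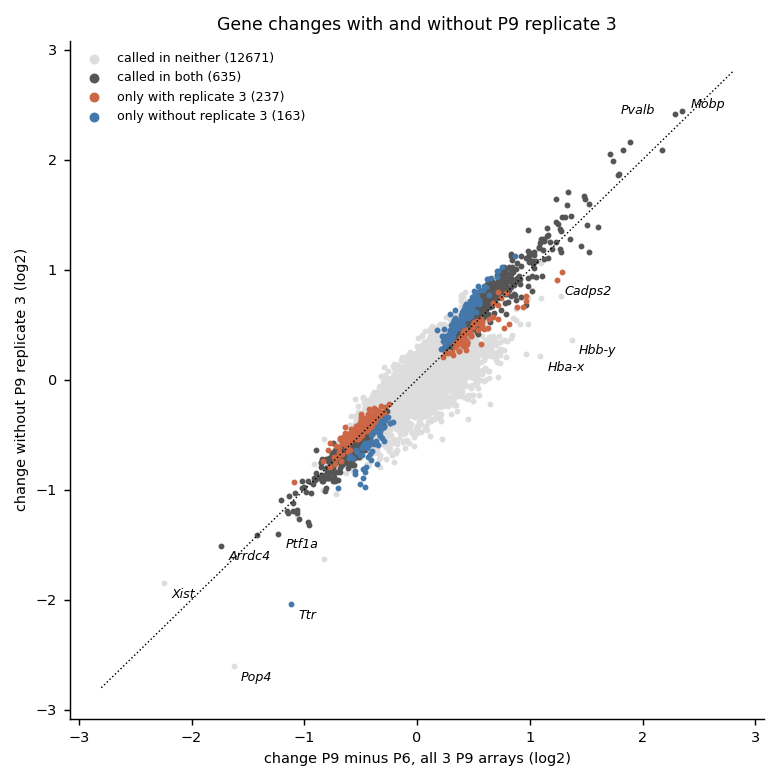
Change of each gene from P6 to P9 (log2) with all 3 P9 arrays (horizontal axis) and without P9 replicate 3 (vertical axis); colours give the 635 genes called in both fits, 237 with that array alone and 163 without it alone. Hbb-y and Hba-x lie far below the dotted line of equality, at 1.37 and 1.09 with the array and 0.36 and 0.21 without.

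Among embryonic transcripts 3 fetal growth genes fell and the globins did not pass. Of 18 genes of that list 3 fell and 1 rose, the progenitor factor Olig3 (0.44 ± 0.12, adjusted p = 0.0335), with a median of 0.03. Without P9 replicate 3, 4 fell and 0 rose, with a median of -0.17. The shares over all genes were 3.36% down and 3.00% up with all arrays. Igf2bp3, an RNA-binding protein of fetal growth, was at 8.86, 8.85 and 9.06 at P6 and at 7.28, 7.92 and 8.68 at P9. P9 replicate 3 was the nearest to P6, and the change was -0.96 ± 0.22 with it (adjusted p = 0.00669) and -1.32 without it (adjusted p = 4.6e-05). Dlk1, a non-canonical Notch ligand, changed by -0.97 ± 0.22 and by -1.30 without replicate 3, and the imprinted RNA H19 by -0.73 ± 0.17 and -0.88. Without P9 replicate 1 the calls of Igf2bp3, Dlk1 and H19 were lost (adjusted p = 0.0734, 0.0757 and 0.0718), and that of H19 also without P6 replicate 1 or 2. Hbb-y changed by 1.37 ± 0.47 (adjusted p = 0.101), or by 0.36 without replicate 3 (adjusted p = 0.711). Of 6 erythroid genes limma called 0 with all arrays, with 2 at an unadjusted p under 0.05 and a median of -0.32, or -0.31 without replicate 3, and the adult alpha-globin Hba-a1 changed by -0.48 ± 0.15 (adjusted p = 0.0681), or by -0.61 without replicate 3 (adjusted p = 0.0289); near-identical globin copies may share its probe.

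The arrays also differed in sex-linked transcripts, within each age and between the ages. Xist, the RNA of the inactive X chromosome, was at 9.72, 9.74 and 11.80 at P6 and at 6.89, 10.25 and 7.39 at P9. The Y-linked translation factor gene Eif2s3y was at 7.90, 8.53 and 6.11 at P6 and at 8.32, 8.22 and 9.84 at P9. P6 replicate 3 had the highest Xist and the lowest Eif2s3y, and P9 replicates 1 and 3 the lowest Xist. Of 4 sex-linked genes limma called 0, with 3 at an unadjusted p under 0.05 and a median of 0.55, or 0 with a median of 0.43 without P9 replicate 3 (adjusted p = 0.19 for Xist and 0.263 for Eif2s3y), and the part of a differing mix of sexes in other changes was not tested. The activity-induced gene Fos fell by 0.42 ± 0.11 (adjusted p = 0.026), the member called among 9 immediate early genes (median 0.03, or 0.01 without P9 replicate 3), and lost its call without P6 replicate 1 or 2 or P9 replicate 1 or 2 (highest adjusted p = 0.116).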

How the data were processed

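RNA was extracted from whole cerebellum with Trizol, cleaned on columns with DNase I, labelled with biotin and hybridised to Illumina bead arrays, per the labels' protocols. For each strain the authors deposited a table of linear intensity, 1 averaged value per probe and array per the file headers. The table of C57BL/6J was used, with 35 arrays over 12 ages and 46632 probes; it holds no detection p-values, and whether it had been normalized was not stated by any source used here. A second deposited table holds scores (mean 8 and SD 2 on every array) and served as an alternative.

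The intensities were quantile normalized over the 35 arrays and taken to log2, with no background correction, so changes of dim probes may be understated. Probes had to exceed the array median on all arrays of some age, which left 25843. A linear model with 1 mean per age was fitted with limma 3.58.1 in R 4.3.3 (statmod 1.5.0), giving 23 residual degrees of freedom, moderated two-sided tests of P9 minus P6 and p-values adjusted by Benjamini-Hochberg across the 25843 probes. Calls needed an adjusted p under 0.05. The 6 arrays limit the precision. SEs and p-values rest on the spread within ages over all 35 arrays, moderated across probes, and not on the P6 and P9 arrays alone. The labels call the replicates biological. Simulated probes had this layout of ages but independent errors, with no chip effect and no array that stood apart. There the procedure recovered 88 of 100 probes changed by 1 and 100 of 100 changed by 2 on the log2 scale, with 9 false calls. That count cannot give the false calls in these data, where arrays of 1 chip correlated at 0.503 in the fit with the chip as a random block. Symbols were matched to RefSeq (26307 probes by symbol, 7973 through an older symbol), and the brightest kept probe stood for each of 13706 genes.

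The lists and genes were chosen with earlier results of these data known. Named genes are 20 chosen for their roles, up to 6 called and 3 uncalled members of each list by size of change, the 12 largest rises and falls called in both fits without overlap, up to 8 with P9 replicate 3 most apart and up to 6 called with or without it alone; the remaining called list members, the genes used for the tissue check and the promoter motifs were added after values were seen. Replicate numbers were not taken to pair the arrays: deviations of same-numbered arrays correlated at 0.601, -0.160 and 0.594. The pair at 0.601 shared a chip and the pair at 0.594 an array series. P6 replicate 2 and P9 replicate 1, on that shared chip but with different numbers, correlated at 0.578. The other differently numbered pairs correlated at -0.743 to 0.254. Alternatives changed the normalization, the filter, the arrays fitted, array weights, the chip, the array series (chips whose numbers begin alike) or the replicate number as a block, and left out each array. The DBA/2J P9 array was not used. Some genes are not reported here.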

Additional observations from a re-analysis of the deposited data

How the results depend on the processing

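The 6 arrays set the limit on what could be called. Of 112 named genes with a call, 68 kept it without any 1 of the 6 arrays. All 112 kept it with the chip as a random block, the scores or the narrower filter, 111 when blocking on the array series, 103 when the chip was a fixed block, 102 without a filter, 92 with joint normalization of 66 arrays, 90 after subtraction of the 5th percentile, 89 on the signals as deposited, 86 with equal medians and 15 in the fit of the 6 arrays alone, which has fewer samples for the spread. The probe count of 1304 (622 higher, 682 lower) was 838 under scaling to equal medians (366 higher), and 394 were higher on the signals as deposited. It was 45 in the fit of the 6 arrays alone (34 and 11), 2605 with the chip as a fixed block (1249 and 1356), 2849 with the chip as a random block (1308 and 1541) and 1967 when blocking on the array series (1050 lower). The share of higher calls was 47.7%, and 75.6% in the fit of the 6 arrays and 58.2% with the replicate block. With the replicate number as a block over the 6 arrays 392 probes were called (228 and 164), although replicate 2 did not correlate best with its own number; 63 of the 112 named calls were kept. Without single arrays the count ranged from 725 to 1674, with 405 to 680 higher and 302 to 1025 lower. With array weights it was 12936 (5909 and 7027), but the weights did not converge and this fit is not relied on. Without P9 replicate 3 the main count was 1193 (680 and 513). It became 767 with equal medians (307 lower), 776 on the signals as deposited (304 lower), 22 in the fit of the remaining P6 and P9 arrays alone (21 and 1), 2457 with array weights (1097 and 1360), 2605 with the chip as a fixed block (1249 and 1356), 2809 with it as a random block (1380 and 1429) and 2055 with the array series (1086 lower). The chip as a fixed block gives the same count with and without that array, because its chip holds no other array of this table. The 1 named value that turned was the ribosomal pseudogene Rps6-ps3, from 0.45 without a call to -0.57 with the chip as a fixed block. Causes of these differences were not tested.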

Other observations

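Some single probes stood far from their group on 1 array. Pop4, a subunit gene of ribonuclease P, was at 6.41 in P9 replicate 1, against 10.67 and 11.48 in the other P9 arrays and 10.88 to 11.44 at P6. The proteasome gene Psmc1 was at 6.53 in P9 replicate 2, against 8.54 and 9.97 in the other P9 arrays and 8.87 to 9.76 at P6. Several probes had their highest level at each age in replicate 3, among them the tubulin gene Tuba1a, at 9.61, 9.78 and 11.56 at P6 and at 9.37, 11.32 and 12.43 at P9, and the calmodulin gene Calm2, at 8.45, 8.69 and 10.19 at P6 and at 8.36, 9.41 and 11.49 at P9. P6 replicate 3 and P9 replicate 3 came from chips of the same array series. None of these 4 genes was called with or without P9 replicate 3.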
